A study of Mus musculus with 16 samples.

Results

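Small leucine-rich proteoglycans are secreted matrix proteins built on a curved stack of leucine-rich repeats, and most carry chondroitin, dermatan or keratan sulfate chains. They bind collagen fibrils and set their thickness and spacing, and several also bind growth factors such as TGF-β or act as ligands of Toll-like receptors once released from the matrix. In the brain their transcripts are known mainly from fibroblasts of the meninges and of the sheath around larger vessels. The genes described here are *Fmod* (fibromodulin), *Dcn* (decorin), *Lum* (lumican), *Bgn* (biglycan), *Ogn* (osteoglycin), *Prelp*, *Aspn* (asporin) and *Omd* (osteomodulin), chosen by gene name. All 8 were present among the 55487 genes of the expression table. A test of expression was run on genes with a CPM (reads per 1000000 reads on genes) of 1 or more in 3 or more of the 16 samples, which kept 18859 genes and 6 of the 8 members. *Aspn* and *Omd* reached 1 CPM in 0 samples and are given by their values only.

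The study asked whether the response of mouse cortex to systemic inflammation depends on the time of day at which the stimulus is given. Male C57Bl6 WT mice, 2 months old, received lipopolysaccharide (LPS, a bacterial outer membrane component that activates Toll-like receptor signalling) at 2 mg/kg, or phosphate-buffered saline (PBS), by intraperitoneal injection. Injections were given at ZT1, which is 1 hour after lights on, or at ZT13, which is 1 hour after lights off, on 2 consecutive days, and cortex was collected on the third day, 24 h after the last dose. Each time has 3 PBS samples and 5 LPS samples, and RNA was sequenced as total RNA after ribosomal RNA depletion.

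Groups were taken from the sample titles, since the treatment field of the labels gives another treatment than the title for 12 of the 16 samples. *Gfap*, which encodes the intermediate filament of reactive astrocytes, was used as a check of the titles. Its range was 111 to 123 CPM over the 6 PBS samples, and 572 to 1134 CPM over the 10 LPS samples. Its log2 fold change in LPS against PBS was 2.64 (SE 0.13, adjusted p = 3.23e-07) at ZT1 and 3.09 (SE 0.09, adjusted p = 3.07e-11) at ZT13. Reads on genes, estimated from the CPM of 1 read in each sample, ranged from 20251840 to 29112758 (median 22459623), so that 3 reads corresponded to 0.103 to 0.148 CPM.

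The 8 genes lie on 4 chromosomes of the GRCm38 build, and 7 of them share a chromosome with another member. *Aspn* (ENSMUSG00000021388, chr13:49544443-49567565), *Omd* (ENSMUSG00000048368, chr13:49582462-49592822) and *Ogn* (ENSMUSG00000021390, chr13:49608046-49624501) follow each other on the plus strand, next to *Ecm2*. *Dcn* (ENSMUSG00000019929, chr10:97479609-97518143) and *Lum* (ENSMUSG00000036446, chr10:97565128-97572703) follow each other on the plus strand, with *Kera* and *Epyc* after them. *Prelp* (ENSMUSG00000041577, chr1:133910304-133921414, minus strand) and *Fmod* (ENSMUSG00000041559, chr1:134037254-134048277, plus strand) lie on the same chromosome, and *Bgn* (ENSMUSG00000031375, chrX:73483602-73495933, plus strand) stands alone. *Cenpp*, a kinetochore gene on the opposite strand, spans *Ogn*, *Aspn* and *Omd*, shares 7 exon bases with *Aspn* (0.297% of its exon bases) and 0 with the other two, and had a mean of 0.291 CPM. The antisense gene *Gm15851* shares 350 exon bases with *Prelp* (9.68%) and had a mean of 0.0429 CPM. *Fmod*, *Dcn*, *Lum* and *Bgn* share 0 exon bases with another annotated gene.

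Levels of different genes were compared as CPM per kilobase (kb) of annotated exon sequence. In PBS samples, *Prelp* and *Fmod* were the family's most abundant transcripts on this scale. At ZT1 the mean level was 7.26 ± 2.08 CPM per kb for *Prelp* and 7.16 ± 1.16 for *Fmod* (SD, n = 3), which did not differ beyond their spread. *Bgn* (1.99 ± 0.272), *Ogn* (1.501 ± 0.195) and *Dcn* (1.5 ± 0.260) came next in CPM per kb, with overlapping samples between neighbours. *Lum* was lower, at 0.427 ± 0.0328 CPM per kb, and *Omd* (0.200) and *Aspn* (0.185) were the lowest. The order at ZT13 in PBS was the same, with *Prelp* at 7.0 ± 0.493 CPM per kb, *Fmod* at 6.47 ± 0.725, *Bgn* at 1.80 ± 0.184, *Ogn* at 1.79 ± 0.299 and *Dcn* at 1.28 ± 0.0769, and here every *Ogn* sample was above every *Dcn* sample. With the longest transcript as the length in place of all exon bases, the mean level of *Bgn* over all samples was 5.63 CPM per kb instead of 2.46, and *Bgn* kept the third place in both PBS groups. By that length *Fmod* (7.59) was above *Prelp* (7.26) and *Dcn* (1.87) above *Ogn* (1.501) in ZT1 PBS, in CPM per kb.

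After LPS the order differed. At ZT1 in LPS, *Dcn* stood at 4.49 ± 0.546 CPM per kb (SD, n = 5), between *Prelp* (6.84 ± 1.43) and *Fmod* (3.85 ± 0.341), and neither neighbour was apart from it in every sample. At ZT13 in LPS, *Dcn* (5.89 ± 0.420 CPM per kb) and *Prelp* (5.82 ± 0.719) overlapped at the top, and *Bgn* (3.03 ± 0.143) was above *Fmod* (2.36 ± 0.265) in every sample. *Ogn* (1.13 ± 0.173 CPM per kb) and *Lum* (0.644 ± 0.124) followed, each apart from its neighbours, and *Aspn* (0.254) and *Omd* (0.166) overlapped at the bottom. This order depends on the length used. By the longest transcript the ZT13 LPS means were 7.33 CPM per kb for *Dcn*, 6.92 for *Bgn* and 5.82 for *Prelp*, so that *Bgn* came before *Prelp*, and in ZT1 LPS *Bgn* (5.88) came before *Dcn* (5.59).

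**Figure D1:**
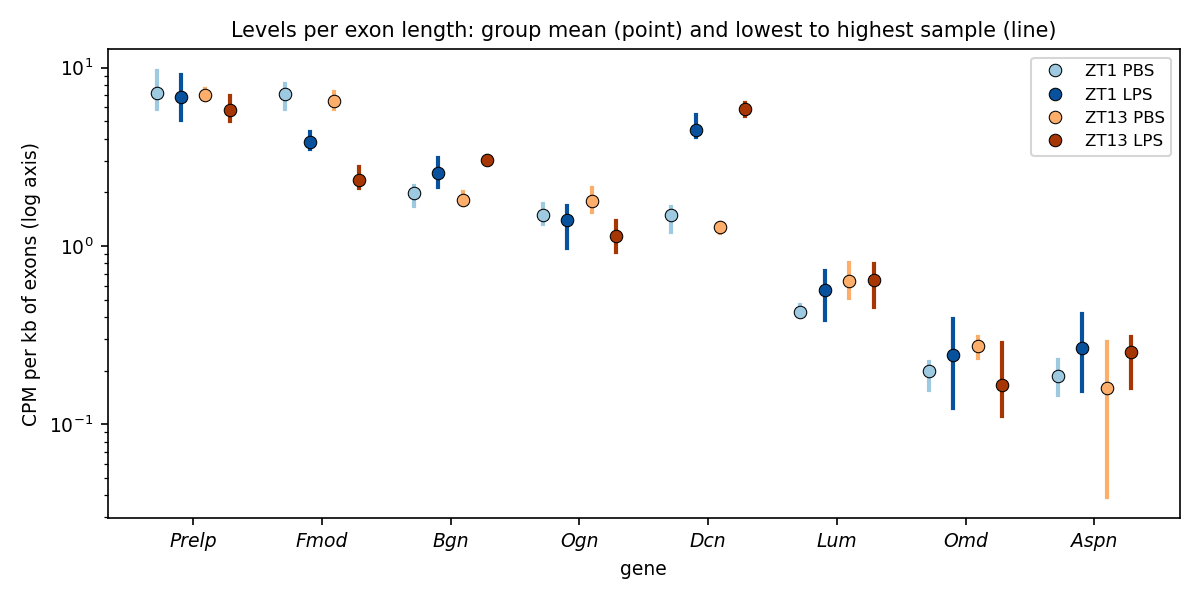
Level of each of the 8 genes in CPM per kb of exon sequence on a logarithmic axis, with the group mean as a point and a line from the lowest to the highest sample, for the 4 groups. *Dcn* lies near *Ogn* and *Bgn* in both PBS groups and overlaps *Prelp* in the ZT13 LPS group.

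LPS was compared with PBS at each time to ask which members responded to the stimulus. *Fmod* fell and *Dcn* rose at both times, and at ZT13 *Bgn* also rose while *Ogn* and *Prelp* fell. Of these, the *Prelp* call held in only 7 of 17 alternative fits, and the *Ogn* call was lost without ZT13 PBS replicate 2. Differences are limma estimates on the scale log2(CPM + 0.5), which understates fold changes of genes with low values, and a gene was called at an adjusted p under 0.05 over all genes tested. At ZT1, of the 6 members tested 1 was higher and 1 was lower, beside 16.2% of all genes tested called (11.1% higher and 5.15% lower), and 2 of the 6 had groups that did not overlap, beside 24.3% of all genes tested. At ZT13, 2 members were higher and 3 were lower, beside 28.6% of all genes tested called (19.2% higher and 9.40% lower), and 4 of the 6 did not overlap, beside 31.2%. The members' median log2 fold change was 0.10 at ZT1 beside 0.04 over all genes tested, and −0.12 at ZT13 beside 0.05. Their median absolute log2 fold change was 0.31 beside 0.13 at ZT1 and 0.65 beside 0.14 at ZT13. Without ZT13 PBS replicate 2 the count at ZT13 was 3 members in place of 5. Over all genes the split was 2089 higher and 972 lower at ZT1, and 1656 and 1390 with median-of-ratios scaling. At ZT13 it was 3629 higher and 1772 lower, and 2842 and 2831 with median-of-ratios scaling. Without ZT1 PBS replicate 1, 2 or 3 the total at ZT1 was 1767, 1870 and 1770 genes in place of 3061.

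*Fmod* encodes a keratan sulfate proteoglycan that binds fibrillar collagen and steers its crosslinking. At ZT1 it had 19.4, 26.7 and 25.0 CPM in the PBS samples and 13.2, 11.6, 11.7, 12.8 and 14.4 CPM in the LPS samples. At ZT13 it had 19.5, 24.1 and 20.6 CPM in PBS and 7.17, 7.005, 7.84, 7.69 and 9.22 CPM in LPS. All 10 LPS samples were below all 6 PBS samples, and the 5 LPS samples of ZT13 were below the 5 of ZT1. At ZT1 the mean went from 23.7 ± 3.82 CPM (SD, n = 3) to 12.7 ± 1.13 CPM (n = 5), with a log2 fold change of −0.86 (95% interval −1.10 to −0.63, adjusted p = 0.000296). At ZT13 it went from 21.4 ± 2.40 to 7.79 ± 0.875 CPM, with a log2 fold change of −1.40 (95% interval −1.61 to −1.19, adjusted p = 1.41e-07). An exact permutation test of the CPM values (two-sided) gave p = 0.0179 at each time, the smallest that 3 samples against 5 allow. In RNA from whole tissue, fewer cells that make a transcript and less of the transcript per cell cannot be told apart.

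*Dcn* encodes the founding member of the class with a dermatan sulfate chain, which coats collagen and binds TGF-β. At ZT1 it had 7.002, 9.63 and 9.64 CPM in PBS and 31.8, 26.01, 24.9, 23.98 and 24.5 CPM in LPS. At ZT13 it had 6.95, 7.82 and 7.57 CPM in PBS and 36.1, 32.4, 35.1, 37.0 and 31.3 CPM in LPS. Every LPS sample was above every PBS sample, and the highest sample of ZT1 LPS, replicate 1, lay above the lowest of ZT13 LPS. At ZT1 the mean of LPS was 2.99 times that of PBS (26.2 ± 3.19 against 8.76 ± 1.52 CPM), with a log2 fold change of 1.54 (95% interval 1.28 to 1.79, adjusted p = 8.73e-06). At ZT13 it was 4.62 times that of PBS (34.4 ± 2.45 against 7.44 ± 0.449 CPM), with a log2 fold change of 2.13 (95% interval 1.98 to 2.29, adjusted p = 1.28e-10).

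*Bgn* encodes the closest relative of decorin, with chondroitin or dermatan sulfate chains, which in soluble form is a ligand of TLR2 and TLR4. At ZT1 it had 10.3, 13.2 and 13.01 CPM in PBS and 19.1, 13.1, 15.0, 16 and 15.1 CPM in LPS. At ZT13 it had 12.3, 10.4 and 10.3 CPM in PBS and 17.9, 17.5, 19.5, 19.3 and 18.1 CPM in LPS. The groups overlapped at ZT1, through LPS replicate 2, and did not overlap at ZT13. *Bgn* rose at ZT13, from 11 ± 1.12 to 18.5 ± 0.870 CPM, with a log2 fold change of 0.72 (95% interval 0.56 to 0.88, adjusted p = 6.05e-06). At ZT1 the log2 difference was 0.35 (95% interval 0.09 to 0.61, adjusted p = 0.0671), which missed the threshold. It passed without ZT1 LPS replicate 2 (0.41, adjusted p = 0.0253), with sample quality weights (0.34, adjusted p = 0.0280) and in a single fit of all 16 samples (0.35, adjusted p = 0.0193), and over all alternatives the adjusted p ranged from 0.0193 to 0.272. The difference between the times, tested as an interaction, was 0.37 (adjusted p = 0.409).

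*Aspn* encodes a collagen-binding relative of decorin with a run of aspartic acid residues and no glycosaminoglycan chain. It ranged from 0.0925 to 0.979 CPM over the 16 samples, which was an estimated 2 to 23 reads. Its group means were 0.436 ± 0.0999 CPM in ZT1 PBS, 0.628 ± 0.254 in ZT1 LPS, 0.378 ± 0.296 in ZT13 PBS and 0.599 ± 0.137 in ZT13 LPS. PBS and LPS samples overlapped at both times (exact permutation test, two-sided, p = 0.25 at ZT1 and p = 0.232 at ZT13).

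**Figure D2:**
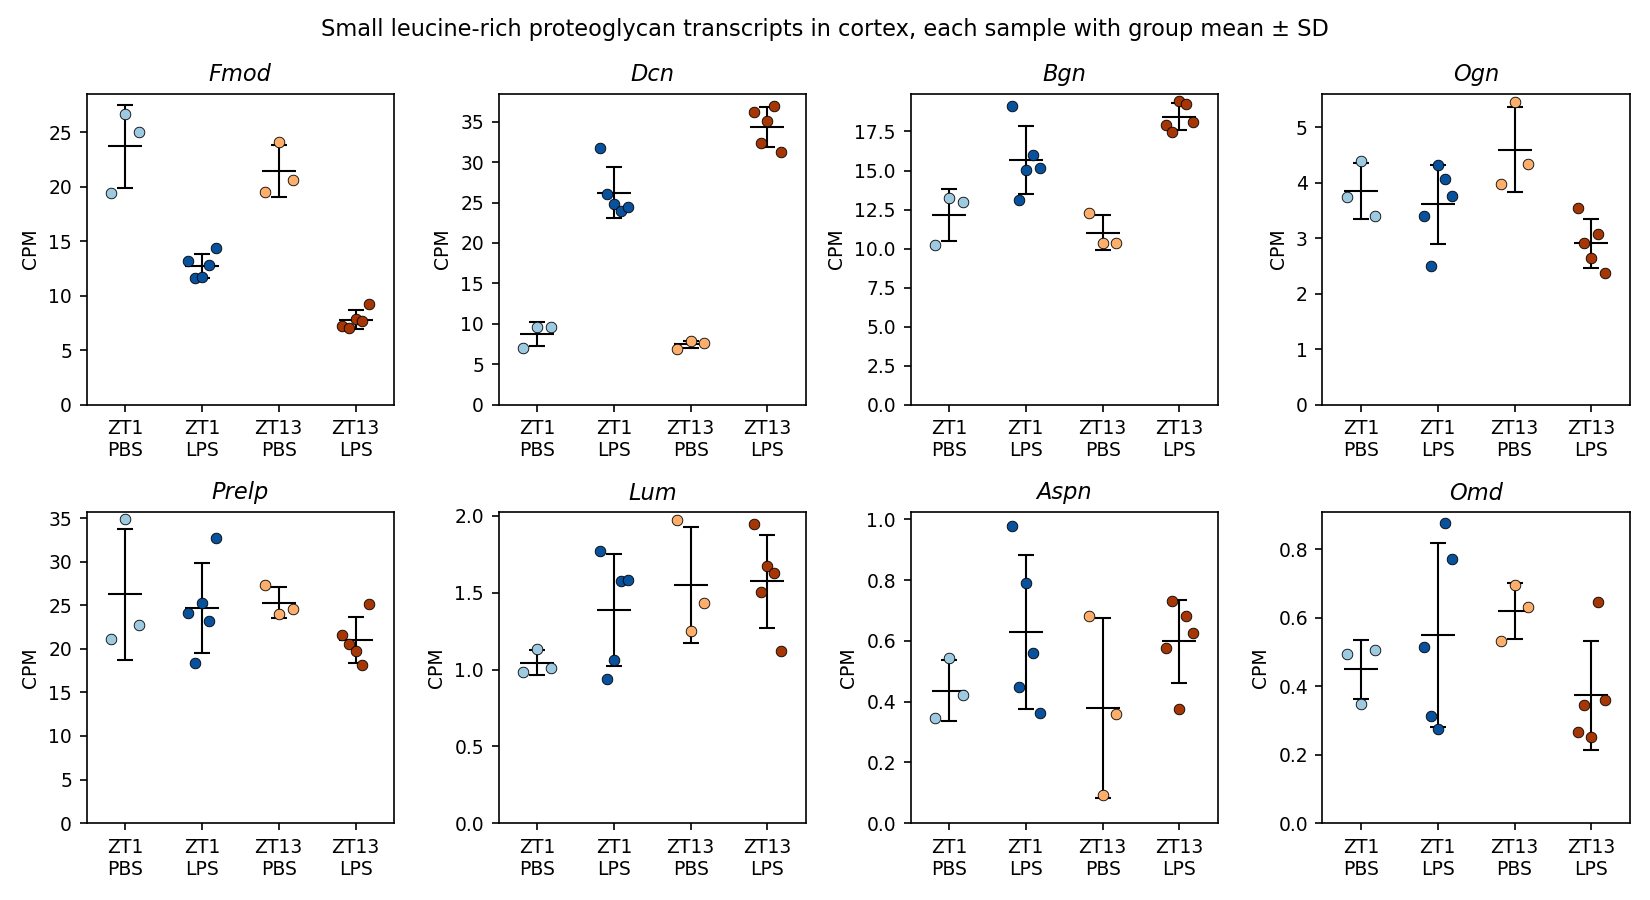
CPM of the 8 genes in every sample (points) of the 4 groups, with the group mean and SD (n = 3 PBS and n = 5 LPS at each time). All LPS samples lie below all PBS samples for *Fmod* and above them for *Dcn*.

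*Prelp* encodes a basic relative of fibromodulin with an arginine- and proline-rich end that binds heparan sulfate. At ZT1 it had 21.1, 34.9 and 22.8 CPM in PBS and 24.1, 18.4, 25.2, 23.2 and 32.7 CPM in LPS, and the groups overlapped. At ZT13 it had 27.3, 23.96 and 24.6 CPM in PBS and 21.6, 20.52, 19.7, 18.2 and 25.1 CPM in LPS, and again they overlapped, through LPS replicate 5. *Prelp* fell at ZT13 by the test, from 25.3 ± 1.78 to 21.03 ± 2.60 CPM, with a log2 fold change of −0.27 (95% interval −0.46 to −0.08, adjusted p = 0.0377), a smaller change than those of *Fmod* and *Dcn* at the same time. The exact permutation test (two-sided) gave p = 0.0893. This call was lost without ZT13 PBS replicate 1, 2 or 3 (adjusted p = 0.161, 0.0545 and 0.0749) and without ZT13 LPS replicate 1, 2, 3 or 4 (0.0513, 0.0673, 0.0738 and 0.0790), and the adjusted p ranged from 0.00308 to 0.231 over all alternatives. It was also lost with no filter on low values (0.175), with no intensity trend (0.0924) and in a single fit of all 16 samples (0.231), and it held in 7 of 17 alternatives. At ZT1 the log2 difference was −0.07 (adjusted p = 0.834), and its sign changed without ZT1 PBS replicate 2 (0.15). The interaction was −0.19 (adjusted p = 0.855), and it ran from −0.41 to −0.06 with 1 sample left out.

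*Lum* encodes the keratan sulfate proteoglycan needed for corneal transparency. It ranged from 0.940 to 1.97 CPM over the 16 samples and reached 1 CPM in 14 of them. Its log2 difference in LPS against PBS was 0.27 (SE 0.18, adjusted p = 0.363) at ZT1 and 0.02 (SE 0.17, adjusted p = 0.951) at ZT13, where the sign changed with median-of-ratios scaling (−0.02). The PBS and LPS samples overlapped at both times. *Omd*, known from bone matrix, ranged from 0.252 to 0.875 CPM (an estimated 6 to 25 reads), with group means of 0.449 ± 0.0871 CPM in ZT1 PBS, 0.550 ± 0.268 in ZT1 LPS, 0.619 ± 0.0819 in ZT13 PBS and 0.373 ± 0.159 in ZT13 LPS. Its PBS and LPS samples overlapped at both times (exact permutation test, two-sided, p = 0.554 at ZT1 and p = 0.0893 at ZT13).

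*Ogn* encodes osteoglycin, also called mimecan, of the class with fewer leucine-rich repeats. At ZT1 it had 3.75, 4.39 and 3.41 CPM in PBS and 3.405, 2.51, 4.33, 4.06 and 3.76 CPM in LPS. At ZT13 it had 3.99, 5.46 and 4.35 CPM in PBS and 3.54, 2.92, 2.64, 3.07 and 2.37 CPM in LPS. The groups overlapped at ZT1 and did not overlap at ZT13. *Ogn* fell at ZT13, from 4.60 ± 0.768 to 2.91 ± 0.444 CPM, with a log2 fold change of −0.58 (95% interval −0.88 to −0.27, adjusted p = 0.00684). Without ZT13 PBS replicate 2 it was −0.46 with an adjusted p of 0.0506, in a range of 0.00341 to 0.0506 over all alternatives. At ZT1 the log2 difference was −0.09 (adjusted p = 0.745), and it changed sign with sample quality weights (0.02). The interaction was −0.48 (adjusted p = 0.502).

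**Figure D3:**
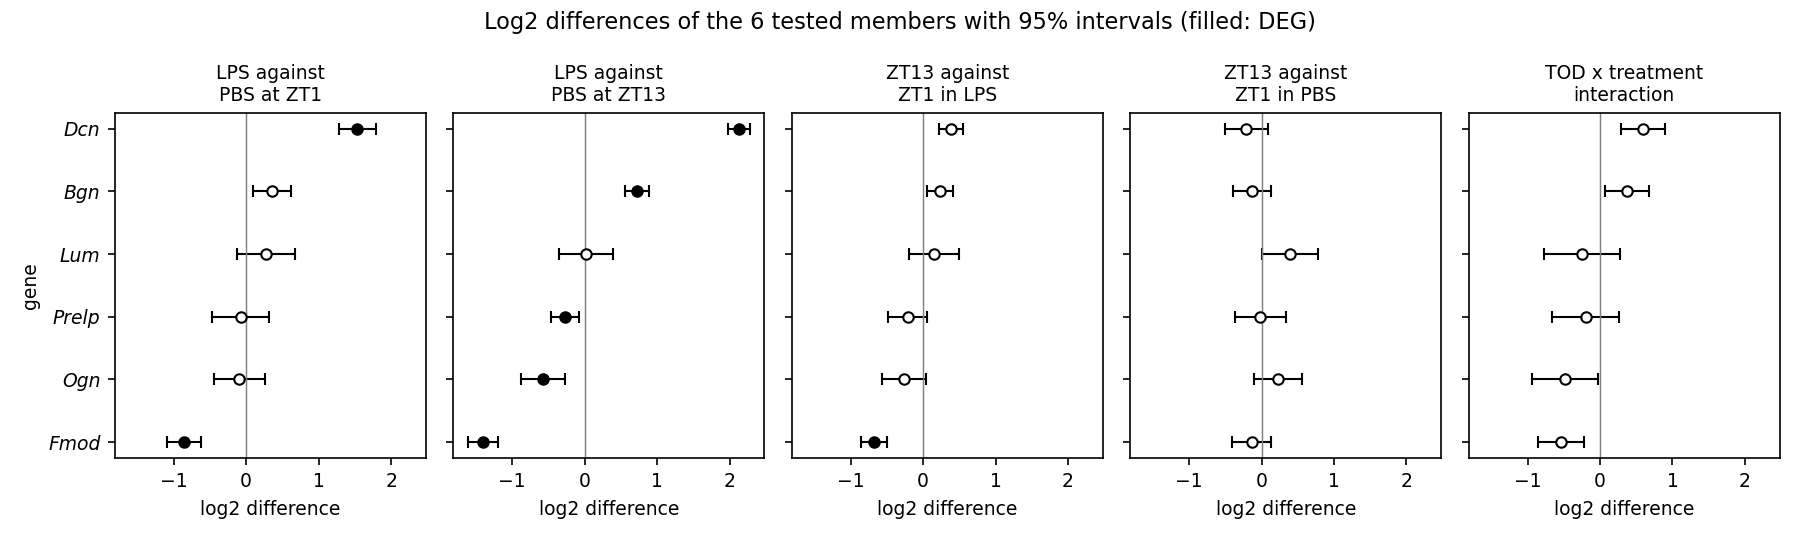
Log2 difference of the 6 tested genes in the 5 comparisons with 95% intervals, where filled points passed an adjusted p under 0.05. *Fmod* and *Dcn* were called in opposite directions in both comparisons of LPS with PBS.

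In LPS samples *Fmod* held a smaller share of the family's transcripts than in PBS samples, and *Dcn* a larger one. The 8 genes together made up 76.6 ± 13.8 CPM in ZT1 PBS, 85.5 ± 8.70 in ZT1 LPS, 72.3 ± 2.07 in ZT13 PBS and 87.1 ± 2.46 in ZT13 LPS (SD). The sum of PBS and LPS samples overlapped at ZT1. At ZT13 it did not, at 69.9 to 73.7 CPM in PBS and 82.9 to 89.2 CPM in LPS. *Fmod* held 31.0% of this sum in ZT1 PBS and 29.6% in ZT13 PBS, and 14.9% in ZT1 LPS and 8.94% in ZT13 LPS. *Dcn* held 11.5% and 10.3% in the PBS groups of ZT1 and ZT13, and 30.8% and 39.5% in the LPS groups. The ratio of *Dcn* to *Fmod* CPM lay between 0.324 and 0.386 in the 6 PBS samples, between 1.70 and 2.41 in ZT1 LPS and between 3.39 and 5.04 in ZT13 LPS, so the 3 ranges were apart. These sums, shares and ratios are descriptions, with no test.

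ZT13 was compared with ZT1 among LPS samples to ask whether the state after LPS differs between the times. Cortex was collected 24 h after the last dose, so the time of the dose and the clock time of collection cannot be told apart. *Fmod* was lower at ZT13 than at ZT1, at 0.612 times the mean. Of the 6 members tested 0 were higher and 1 was lower by limma, beside 0.0212% of all genes tested called (4 genes), and at an unadjusted p under 0.05 the counts were 3 members and 1998 genes. The groups of 1 member did not overlap, beside 1.96% of all genes tested. *Fmod* had a log2 fold change of −0.68 (95% interval −0.86 to −0.49, adjusted p = 0.0159), and the exact permutation test (two-sided) gave p = 0.00794, the smallest that 5 samples against 5 allow. That call was lost without ZT1 LPS replicate 3 or 5 (adjusted p = 0.0526 and 0.0600) and without ZT13 LPS replicate 1, 2, 3 or 4 (0.0638, 0.0644, 0.0782 and 0.0824), with no filter on low values (0.282) and with no intensity trend (0.0807), leaving 0 members called, and the adjusted p ranged from 0.00512 to 0.282 over all alternatives. *Dcn* had a log2 difference of 0.39 (95% interval 0.23 to 0.55, adjusted p = 0.0877; 0.43 and 0.0191 with sample quality weights), and *Bgn* of 0.24 (SE 0.08, adjusted p = 0.315). Without ZT1 LPS replicate 1, which had the highest *Dcn* and *Bgn* of its group, the count was 3 members, with *Dcn* at 0.46 (adjusted p = 0.00917, range over all alternatives 0.00917 to 0.358) and *Bgn* at 0.31 (adjusted p = 0.0380, range 0.0380 to 0.562), and over all genes it was 345 in place of 4. Over all genes the count was 20 without ZT1 LPS replicate 2, and 0 to 2 without ZT1 LPS replicate 3 or 5 or any 1 of the 5 ZT13 LPS samples. The members' median log2 difference was −0.03 beside 0.01 over all genes tested. *Lum* (0.15), *Ogn* (−0.26) and *Prelp* (−0.21) had adjusted p of 0.830, 0.554 and 0.601.

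ZT13 was compared with ZT1 among PBS samples as the time difference without the stimulus. By limma 0 of the 6 members were called, beside 0.520% of all genes tested (98 genes), and 1 member (*Lum*) and 2543 genes had an unadjusted p under 0.05. *Lum* had 0.986, 1.14 and 1.01 CPM at ZT1 and 1.97, 1.25 and 1.43 CPM at ZT13, so the groups did not overlap, as for 18.7% of all genes tested. Its log2 difference was 0.40 (SE 0.17, adjusted p = 0.359). *Omd*, below the level for the test, had groups that did not overlap either, at 0.493, 0.349 and 0.505 CPM at ZT1 and 0.531, 0.694 and 0.632 CPM at ZT13. For both, the exact permutation test (two-sided) gave p = 0.10, the smallest that 3 samples against 3 allow. The log2 difference of *Fmod* was −0.14 (SE 0.12, adjusted p = 0.679) and that of *Dcn* was −0.21 (adjusted p = 0.544). The members' median was −0.08 beside −0.00 over all genes tested. Over all genes the count was 25, 12 and 23 without ZT1 PBS replicate 1, 2 and 3, and 53 and 14 without ZT13 PBS replicate 1 and 2.

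The interaction asks whether the log2 difference between LPS and PBS was larger at ZT13 than at ZT1, and it uses the same 16 samples as the other comparisons, so the values are not independent of theirs. By limma 0 of the 6 members were called, beside 0.159% of all genes tested (30 genes), and at an unadjusted p under 0.05 the counts were 4 members and 1745 genes. The 4 were *Dcn* (0.60, 95% interval 0.29 to 0.90, adjusted p = 0.135), *Fmod* (−0.54, 95% interval −0.86 to −0.22, adjusted p = 0.213), *Bgn* and *Ogn*. *Dcn* was called without ZT1 PBS replicate 1 (0.74, adjusted p = 0.0376), without ZT1 LPS replicate 1 (0.67, adjusted p = 0.0259) and with sample quality weights (0.66, adjusted p = 0.0254), in a range of 0.0254 to 0.373 over all alternatives. *Lum* had −0.25 (adjusted p = 0.827). The members' median was −0.22 beside 0.01 over all genes tested. Over all genes the count was 104 without ZT1 LPS replicate 1 and 7 without ZT13 PBS replicate 2. It was 13, 13 and 14 without ZT1 PBS replicate 1, 2 and 3, 18 without ZT1 LPS replicate 3 or 5, and 17 and 19 without ZT13 LPS replicate 4 and 5.

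Promoter sequences are shown for the members that were called at ZT13 and are in the table, to set the windows of genes that moved in unlike directions beside each other. Of the 8 members 6 matched the RefSeq table of the GRCm38.p6 build, *Aspn*, *Bgn*, *Fmod*, *Ogn*, *Omd* and *Prelp*, and *Dcn* and *Lum* did not. Each window runs 5′ to 3′ from 250 bases before to 50 after the gene's start in RefSeq, which for *Bgn*, *Ogn* and *Prelp* is not the same base as in the annotation used for the positions above. The windows are chr1:134037004-134037303 (plus strand) for *Fmod*, chrX:73483351-73483650 (plus strand) for *Bgn*, chr13:49607765-49608064 (plus strand) for *Ogn* and chr1:133921352-133921651 (minus strand) for *Prelp*. Capitals mark a match, on either strand, to TATAAA (the TATA box), CACGTG (an E-box), GGGCGG (a GC box), TGANTCA (an AP-1 element) or CAGACA (a SMAD element).
Fmod: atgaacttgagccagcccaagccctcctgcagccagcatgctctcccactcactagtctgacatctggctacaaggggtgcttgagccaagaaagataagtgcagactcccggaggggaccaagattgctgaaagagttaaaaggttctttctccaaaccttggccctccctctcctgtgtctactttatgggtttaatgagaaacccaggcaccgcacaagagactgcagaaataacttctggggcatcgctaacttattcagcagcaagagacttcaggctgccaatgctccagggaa
Bgn: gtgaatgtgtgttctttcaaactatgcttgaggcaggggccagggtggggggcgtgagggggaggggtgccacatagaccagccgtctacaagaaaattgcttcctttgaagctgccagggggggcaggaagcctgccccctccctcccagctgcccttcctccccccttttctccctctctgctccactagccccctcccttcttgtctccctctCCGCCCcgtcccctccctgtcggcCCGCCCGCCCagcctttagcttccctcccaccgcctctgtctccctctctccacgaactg
Ogn: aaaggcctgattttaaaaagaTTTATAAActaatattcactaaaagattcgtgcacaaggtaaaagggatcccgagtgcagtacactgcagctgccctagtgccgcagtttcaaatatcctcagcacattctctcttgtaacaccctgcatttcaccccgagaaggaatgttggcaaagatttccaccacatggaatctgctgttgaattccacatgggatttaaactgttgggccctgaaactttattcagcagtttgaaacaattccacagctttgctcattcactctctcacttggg
Prelp: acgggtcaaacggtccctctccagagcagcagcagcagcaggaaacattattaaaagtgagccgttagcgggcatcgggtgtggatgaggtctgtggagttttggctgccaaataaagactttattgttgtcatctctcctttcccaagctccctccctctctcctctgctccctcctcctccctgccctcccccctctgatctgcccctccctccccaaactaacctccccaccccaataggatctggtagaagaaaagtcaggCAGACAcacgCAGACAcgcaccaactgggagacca

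In the *Fmod* window, as in that of *Omd*, none of the 5 motifs' letters were present. The *Bgn* window held GGGCGG at positions 217, 241 and 245, of which the last pair overlaps, and 35.7% of all 32851 promoters in the table hold it. The *Ogn* window held TATAAA at positions 22 and 24, overlapping on opposite strands, and that of *Aspn* held it at 44 and 73, beside 13.6% of all promoters. The *Prelp* window held CAGACA at 266 and 276, beside 21.04%. CACGTG and TGANTCA were in 0 of the 6 windows, beside 7.15% and 7.81% of all promoters.

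A list of 10 other genes of the wider family was counted in the same way, and 6 of them were tested (*Ecm2*, *Chadl*, *Nyx*, *Tsku*, *Podn* and *Podnl1*). At ZT1 1 was higher and 0 were lower, and at ZT13 0 were called, with medians of −0.12 and −0.01. Among all genes tested, 16.2% were called at ZT1 and 28.6% at ZT13. *Tsku* encodes tsukushi, a secreted inhibitor of growth factor signals. It stood at 2.40 ± 0.398 CPM in ZT1 PBS and 4.31 ± 0.801 in ZT1 LPS, a log2 fold change of 0.72 (SE 0.16, adjusted p = 0.00918). At ZT13 the log2 difference of *Tsku* was 0.41 (SE 0.15, adjusted p = 0.0543), and its interaction was −0.30 (adjusted p = 0.744). *Chadl*, a chondroadherin-like collagen-binding gene, ranged from 14.0 to 18.4 CPM. In the comparisons of ZT13 with ZT1 in LPS and PBS samples and in the interaction, 0 of the 6 were called by limma. The shares of all genes tested that were called there were 0.0212%, 0.520% and 0.159%.

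Members bind fibrillar collagens and some collagens found beside the fibrils. Of 19 genes tested for these collagens and for the enzymes that crosslink them, 4 were higher and 1 was lower at ZT1, and 10 were higher and 1 was lower at ZT13, with medians of 0.14 and 0.30 beside the 0.04 and 0.05 of all genes tested. Beside these counts, 11.1% of all genes tested were higher and 5.15% lower at ZT1, and 19.2% and 9.40% at ZT13. *Col5a3*, a chain of the collagen that starts fibrils, rose from 3.33 ± 0.342 to 7.93 ± 1.80 CPM at ZT1 and from 2.65 ± 0.491 to 11.3 ± 2.03 CPM at ZT13 (log2 fold change 1.90, adjusted p = 2.38e-07). *Lox*, the lysyl oxidase whose crosslinking fibromodulin steers, had means of 1.01 CPM in ZT1 PBS, 2.53 in ZT1 LPS, 0.562 in ZT13 PBS and 2.79 in ZT13 LPS. *Lox*, *Loxl4* and *Col2a1*, which count among the 10 higher at ZT13, reached 1 CPM in fewer than 3 PBS samples. They entered the test only through LPS samples, so that the filter set their direction, and the medians include them. *Col11a2*, a chain of a cartilage collagen, was the 1 lower gene at each time, with log2 fold changes of −0.84 (SE 0.10, adjusted p = 0.000166) and −0.68 (adjusted p = 3.53e-05). The 4 higher at ZT1 were *Col5a3*, *Col3a1*, *Col6a1* and *Loxl3*. *Col6a1*, of the beaded filament collagen that decorin and biglycan bind, rose from 59.5 to 74.4 CPM at ZT1 (log2 fold change 0.32, adjusted p = 0.00618) and from 60.1 to 80.1 CPM at ZT13 (0.41, adjusted p = 2.17e-05).

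Among 13 receptors and ligands that members bind, 6 were higher and 0 lower at ZT1 and 7 were higher and 1 lower at ZT13, with medians of 0.15 and 0.17. Beside them, 11.1% and 19.2% of all genes tested were higher at ZT1 and ZT13, and 5.15% and 9.40% were lower. The receptors of soluble biglycan and decorin were in the list. *Tlr2* had means of 0.584 CPM in ZT1 PBS, 6.36 ± 3.02 in ZT1 LPS, 0.572 in ZT13 PBS and 9.85 ± 2.41 in ZT13 LPS. It was below 1 CPM in every PBS sample and entered the test only through LPS samples. Thus *Tlr2*, which the medians include, is 1 of the higher genes at each time in a direction that the filter set. Its coreceptor *Cd14* rose by 1.62 (adjusted p = 0.00366) and 2.40 (adjusted p = 1.28e-08), and *Tlr4*, the LPS receptor, rose by 1.07 (adjusted p = 0.00212) and 1.24 (adjusted p = 1.52e-05) on the log2 scale. *Tgfb1*, the growth factor that decorin, biglycan and fibromodulin bind, rose by 0.97 (adjusted p = 0.000675) at ZT1 and 1.43 (adjusted p = 1.14e-07) at ZT13. The 1 lower gene at ZT13 was *Met*, a receptor tyrosine kinase that decorin binds (−0.35, adjusted p = 0.00394). *Lrp1*, the endocytic receptor that takes up decorin, had a mean of 1583 CPM.

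The members' sugar chains are built by shared enzymes, of which 25 of a list of 27 were tested. At ZT1 2 were higher and 4 lower, and at ZT13 8 were higher and 2 lower, with medians of −0.03 and −0.06. Of all genes tested, 11.1% were higher and 5.15% lower at ZT1, and 19.2% and 9.40% at ZT13. *B4galt1*, a galactosyltransferase, rose by 1.24 (adjusted p = 1.61e-05) at ZT1 and 1.62 (adjusted p = 2.04e-08) at ZT13 on the log2 scale. *B3gnt7*, which extends keratan sulfate, had means of 1.56 CPM in ZT1 PBS, 0.801 in ZT1 LPS, 1.09 in ZT13 PBS and 0.681 in ZT13 LPS. It is 1 of the 4 lower at ZT1, but it reached 1 CPM in 1 LPS sample and entered the test only through PBS samples. The filter thus set its direction, and the medians include it. Also lower at ZT1 were *B3galt6* of the linker region (−0.35, adjusted p = 0.0123), *Xylt1* and *Ust*. The other gene higher at ZT1 was *Chst2*, and the 2 lower at ZT13 were *B3galt6* and *Chsy3*. *Dse* and *Chst14*, which make the dermatan sulfate of decorin and biglycan, rose at ZT13 with log2 fold changes of 0.56 (adjusted p = 0.00213) and 0.50 (adjusted p = 0.00879). Their log2 differences at ZT1 were 0.16 (adjusted p = 0.417) and 0.14 (adjusted p = 0.625), with interactions of 0.40 (adjusted p = 0.473) and 0.36 (adjusted p = 0.629). *Chst1*, a keratan sulfate sulfotransferase, had a mean of 269 CPM. In PBS samples *Chst2*, another such sulfotransferase, was higher at ZT13 than at ZT1 (0.20, adjusted p = 0.0442).

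Of 10 tested proteases that cleave members, 7 were higher and 0 lower at each time, with medians of 0.46 and 1.07. Over all genes tested, 11.1% were higher at ZT1 and 19.2% at ZT13. These counts and medians include *Mmp3* and *Mmp12*, which were below 1 CPM in every PBS sample and entered the test only through LPS samples. The filter set their direction, and both medians are higher through them. Medians without them were not computed. *Mmp3*, stromelysin, was listed at 0 in all 6 PBS samples and had means of 7.88 ± 5.24 CPM in ZT1 LPS and 17.6 ± 6.38 in ZT13 LPS. *Mmp9*, a gelatinase, rose with log2 fold changes of 2.06 (SE 0.30, adjusted p = 0.000877) and 3.48 (SE 0.22, adjusted p = 5.23e-08). *Mmp12*, macrophage elastase, had means of 1.71 CPM in ZT1 LPS and 2.75 in ZT13 LPS. *Mmp14*, the membrane-bound enzyme that cleaves lumican, was at 12.4 ± 1.86, 19.0 ± 4.67, 6.97 ± 0.104 and 24.01 ± 1.81 CPM in ZT1 PBS, ZT1 LPS, ZT13 PBS and ZT13 LPS. It was lower at ZT13 than at ZT1 in PBS, the 1 call of the list there (−0.78, adjusted p = 0.0228), and its interaction passed the threshold (1.14, SE 0.19, adjusted p = 0.0159). Over all genes tested, 0.520% were called between the times in PBS and 0.159% in the interaction. *Htra1*, a serine protease of the matrix, had a mean of 115 CPM.

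Of 23 other proteoglycan genes of brain, 4 were higher and 4 lower at ZT1 and 5 were higher and 6 lower at ZT13, with medians of −0.02 and −0.06. The shares over all genes tested were 11.1% higher and 5.15% lower at ZT1, and 19.2% higher and 9.40% lower at ZT13. *Hspg2*, the basement membrane proteoglycan perlecan, rose by 1.20 (adjusted p = 0.000928) and 2.22 (adjusted p = 2.95e-09) on the log2 scale. *Srgn*, of blood cell granules, rose by 2.01 (adjusted p = 4.22e-05) and 2.21 (adjusted p = 3.10e-08). *Sdc4*, a cell surface syndecan, rose by 0.90 (adjusted p = 0.000131) and 0.73 (adjusted p = 1.45e-05). *Bcan*, the perineuronal net component brevican, fell at both times, with log2 fold changes of −0.61 (adjusted p = 0.000981) and −0.87 (adjusted p = 5.04e-07). The other gene higher at ZT1 was *Vcan*, and those lower were *Bcan*, *Ncan*, *Gpc1* and *Spock2*, which had a mean of 933 CPM. *Agrn*, agrin, was called higher at ZT13, as were *Hspg2*, *Srgn*, *Sdc4* and *Vcan*. In the collagen, binding partner and brain proteoglycan lists, 0 genes were called by limma between ZT13 and ZT1 in LPS or PBS samples or in the interaction, beside 0.0212%, 0.520% and 0.159% of all genes tested (1998, 2543 and 1745 genes at an unadjusted p under 0.05).

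Markers of fibroblasts were read beside the members because meningeal and perivascular fibroblasts are their known source. Their summed level did not separate LPS from PBS. It was 285, 403 and 304 CPM in ZT1 PBS, 390.1, 303, 329.8, 334 and 335 in ZT1 LPS, 324, 291 and 309 in ZT13 PBS, and 321, 314, 338, 332 and 318 in ZT13 LPS. All 18 markers were tested, 0 were at 0 in all samples, and 5 were higher and 1 lower at ZT1 and 8 higher and 2 lower at ZT13 (medians 0.13 and 0.25). Beside these counts, 16.2% of all genes tested were called at ZT1 and 28.6% at ZT13. *Col3a1*, a fibrillar collagen, rose with log2 fold changes of 0.89 (adjusted p = 0.00119) and 1.45 (adjusted p = 5.46e-05). *Aldh1a2*, a retinoic acid enzyme of the meninges, rose by 0.90 (adjusted p = 0.00248) and 1.45 (adjusted p = 4.32e-07), and *Mgp*, matrix Gla protein, by 0.88 (adjusted p = 0.000324) and 0.95 (adjusted p = 1.98e-05). *Slc22a6*, an organic anion transporter, was the 1 lower marker at ZT1. It fell by the test at both times, with log2 fold changes of −0.63 (adjusted p = 0.00754) and −0.87 (adjusted p = 1.73e-05). *Igf2*, the marker with the highest mean CPM (63.5), was the other marker lower at ZT13 (−0.79, adjusted p = 0.000820), with −0.28 at ZT1 (adjusted p = 0.417) and an interaction of −0.51 (adjusted p = 0.635). At ZT13 its mean was 78.4 ± 19.8 CPM in PBS and 44.5 ± 7.26 in LPS, where the mean sums were 308 and 325 CPM. Its fall thus offsets rises of other markers in the sum, and the sum without *Igf2* was not computed. The other 2 higher at ZT1 were *Islr* and *Foxd1*. Between the times in LPS or PBS samples and in the interaction 0 of 18 were called by limma, beside 0.0212%, 0.520% and 0.159% of all genes tested. The part of fibroblast number in the members' changes was not tested.

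Most endothelial markers rose with LPS, and the summed neutrophil markers were higher in every LPS sample than in every PBS sample. The summed level of 8 endothelial markers was 228 ± 3.05 CPM in ZT1 PBS and 367 ± 36.6 in ZT1 LPS, and 221 ± 22.0 in ZT13 PBS and 409 ± 15.3 in ZT13 LPS, with 6 higher and 1 lower (*Flt1*) at ZT1 and 7 higher at ZT13. For these and the following markers, the share of all genes tested that was called was 16.2% at ZT1 and 28.6% at ZT13. *Slc2a1* had the highest mean of them (110.1 CPM). *Cldn5*, a tight junction gene, rose by 0.88 (adjusted p = 0.00438) at ZT1 and 2.24 (adjusted p = 2.77e-09) at ZT13 on the log2 scale, with an interaction of 1.36 (adjusted p = 0.0127). *Pecam1*, *Cdh5* and *Flt1* also passed the interaction test, and between the times in PBS *Slc2a1* was higher and *Cldn5* and *Flt1* were lower. In these 2 comparisons 0.159% (interaction) and 0.520% (PBS) of all genes tested were called. The summed level of 5 neutrophil markers was 0.228 to 0.789 CPM in PBS samples, 8.42 to 41.9 in ZT1 LPS and 28.3 to 78.7 in ZT13 LPS, and *S100a9* had the highest mean (14.9 CPM). The 4 of them that were tested were below 1 CPM in every PBS sample and entered the test only through LPS samples, so their calls (3 and 4 higher at ZT1 and ZT13) were set in direction by the filter. The summed level of 8 mural cell markers was 159, 152, 139.8 and 158 CPM in ZT1 PBS, ZT1 LPS, ZT13 PBS and ZT13 LPS on average, with 2 (*Kcnj8*, *Abcc9*) higher at ZT1, these and *Pdgfrb* higher at ZT13, and 0 lower. None of these lists held a marker at 0 in all samples, and their part in the members' changes was not tested.

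Choroid plexus epithelium differed between samples of 1 group. The summed level of its 8 markers was 14.9, 933 and 21.5 CPM in ZT1 PBS, 874, 18.2, 422, 22.9 and 569 in ZT1 LPS, 986, 17.5 and 560.2 in ZT13 PBS, and 241, 38.5, 167, 204 and 599 in ZT13 LPS, and *Ttr* had the highest mean (309 CPM). Each group held samples with low and with high sums. ZT1 PBS replicate 2, with 933 CPM of these markers, also had the highest *Prelp* (34.9 CPM), *Fmod* (26.7 CPM) and fibroblast sum (403 CPM) of its group. ZT13 PBS replicate 1, with 986 CPM, and ZT13 LPS replicate 5, with 599 CPM, had the highest *Prelp* of their groups (27.3 and 25.1 CPM), and both enter the *Prelp* comparison at ZT13. *Fmod* was the lowest of its group in ZT13 PBS replicate 1 (19.5 CPM) and the highest in ZT13 LPS replicate 5 (9.22 CPM). In ZT1 LPS the highest *Prelp* (32.7 CPM) was in replicate 5, with 569 CPM of these markers, and replicate 1, with 874 CPM, had 24.1 CPM of *Prelp*. The part of choroid plexus content in the *Prelp* and *Fmod* values was not tested. Of the 8 markers 0 were called at ZT1, and 1 was higher at ZT13 (*Aqp1*, 1.71, adjusted p = 0.0229), beside 16.2% and 28.6% of all genes tested called.

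Markers of the other cell types were counted at ZT1 and ZT13, where 16.2% and 28.6% of all genes tested were called. For astrocytes 4 and 4 of 6 were higher and 0 and 1 (*Slc1a2*) lower, and for microglia 4 and 4 of 5 were higher and 1 and 1 lower, the latter *P2ry12* at both times (−1.07 and −1.16). The microglia markers that were higher include *Tmem119* (0.72 and 0.68) and *Cx3cr1* (0.64 and 0.85). Of 8 neuron markers 0 and 3 were lower, led by *Syt1* (−0.22), and of 5 oligodendrocyte markers 1 and 1 (*Mobp*) were higher and 1 and 3 lower. Red cell markers gave 0 calls of 5 by limma at both times. Skeletal muscle markers gave 0 calls of 3 tested, with *Tnnt3* at 3 reads or fewer in every sample, and those of bone and cartilage gave 0 and 1 (*Col2a1*, whose direction the filter set) of 4 tested.

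**Figure D4:**
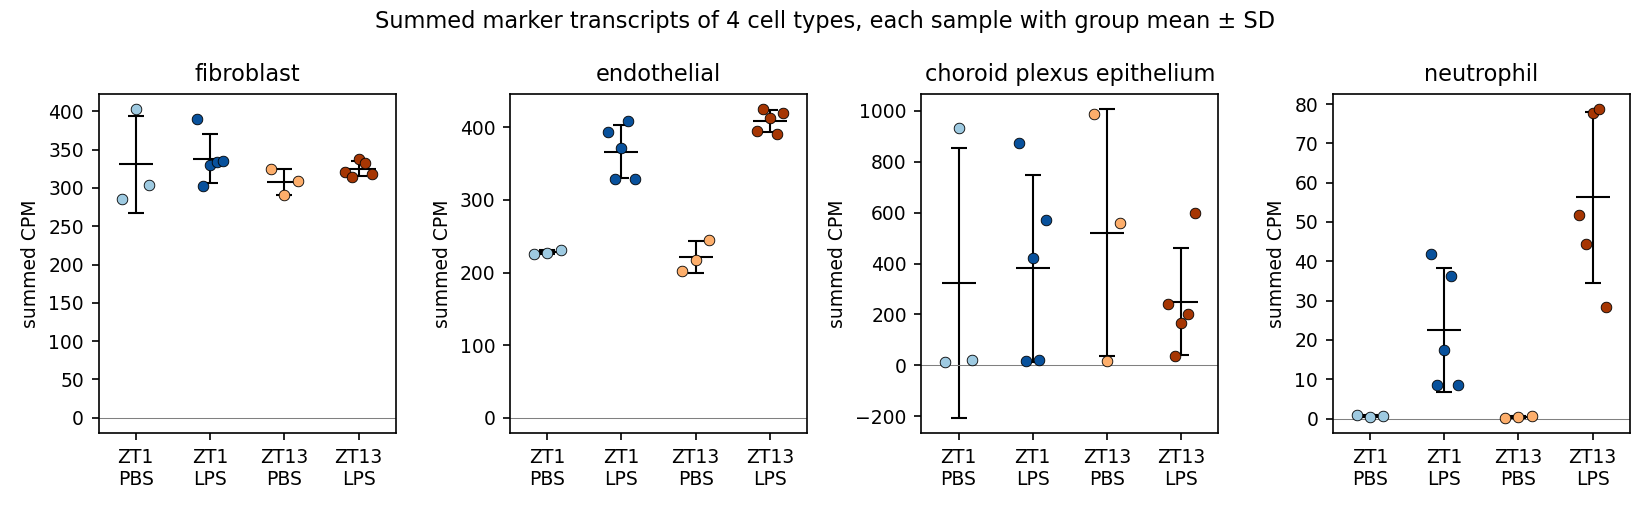
Summed CPM of the markers of fibroblasts, endothelium, choroid plexus epithelium and neutrophils in every sample (points) of the 4 groups, with mean and SD. The fibroblast sums of LPS and PBS samples overlap, and the choroid plexus sums range from 14.9 to 986 CPM over all samples, with low and high sums in each group.

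Likeness within groups was described by Pearson's r of the deviations from the group means of log2 values, over the 16 samples. Among tested members the highest r were those of *Lum* with *Bgn* (0.65), *Dcn* with *Bgn* (0.63) and *Fmod* with *Prelp* (0.59), while *Fmod* with *Dcn* had 0.39. Over all genes tested, the 5 genes most like *Fmod* were *Fbln1* (0.89), which encodes the matrix glycoprotein fibulin-1, *Gm49058* (0.85), *Hspa2* (0.83), *Gm43667* (0.83) and *Ybx2* (0.83). By the 16 log2 values themselves, which also hold the group differences, they were *Siglech* (0.95), *Mfge8* (0.94), *Ppm1a* (0.94), *Reps2* (0.94) and *Slc22a6* (0.93), so the lists shared 0 genes. By these values *Fbln1* (−0.76) and *Hspa2* (−0.76) ran opposite to *Fmod*, and *Ybx2* had −0.09. The 4 genes most like the mean of the other tested members by deviations were *Canx* (0.92), *Tgif1* (0.90), *Nrp1* (0.90) and *Tgoln1* (0.89). These are descriptions with no p, and samples of different depth and choroid plexus content share them.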

How the data were processed

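Reads were demultiplexed with bcl2fastq, and aligned and counted with DRAGEN 4.0.3-8 on GRCm38 by the submitters, who deposited CPM, each column summing to 1000000. Aligner settings and whether counting used the strand are not given in the sources used here, so reads of overlapping genes cannot be told apart. Of 55774 lines, 287 repeated a gene, which left 55487. Exact read counts could not be recovered, since only 80.7 to 82.8% of values of up to 20 reads were whole within 0.01. Read numbers in the text are estimates, a CPM divided by the CPM of 1 read and rounded. Values were taken as log2(CPM + 0.5), and genes reaching 1 CPM in 3 or more of 16 samples were tested with limma 3.58.1 in R 4.3.3 (moderated test with intensity trend). P-values were adjusted by Benjamini-Hochberg over all genes tested. Comparisons of 2 groups were fitted on those groups, and the interaction on all 16 samples with 4 group means. Exon bases come from GENCODE M21. Other steps used Python 3.11.15 with matplotlib 3.10.9, numpy 2.4.6 and pandas 2.3.3.

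In each list the genes named are the one with the highest mean CPM and the 3 with the largest change among those called in a comparison. Other genes, each the subject of a count of 5 or fewer, were named after their values were seen. The members and lists (the wider family, fibroblast markers, collagens and crosslinking enzymes, binding partners, chain enzymes, proteases, brain proteoglycans and markers of 12 cell types) were chosen with earlier results of these data known. The samples are separate mice by the study's description, which the labels do not repeat.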

Additional observations from a re-analysis of the deposited data

Results flagged for a closer look

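In groups of 5 samples, a sample stood out where its gap to the nearest other sample, divided by the range of the group, was above 0.71 (Dixon's value for 5 samples). Of 16 sets of 5 samples (8 genes in both LPS groups), 2 held such a sample, and chance gives about 1 in 20. *Dcn* in ZT1 LPS replicate 1 was 31.8 CPM, above 23.98 to 26.01 CPM in the other 4 samples (gap over range 0.740). The same sample had the highest *Bgn* (19.1 CPM), *Lum* (1.77 CPM) and *Aspn* (0.979 CPM) of its group, and the highest sums of fibroblast (390.1 CPM), choroid plexus (874 CPM) and neutrophil markers (41.9 CPM), whose part in the *Dcn* value was not tested. Without it the log2 fold change of *Dcn* at ZT1 was 1.47 in place of 1.54. *Omd* in ZT13 LPS replicate 4 was 0.644 CPM (an estimated 17 reads), above 0.252 to 0.358 CPM in the other 4 samples (gap over range 0.728).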

How the results depend on the processing

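Other pseudocounts (0.1 and 1), filters, scaling, variance models and the left-out samples were tried in turn. The calls of *Fmod* and *Dcn* in LPS against PBS at both times, and of *Bgn* at ZT13, held in 17 of 17 alternatives each. *Fmod* ranged from −0.997 to −0.77 at ZT1 and from −1.48 to −1.32 at ZT13, and *Dcn* from 1.39 to 1.61 and from 2.07 to 2.19.

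With no filter on low values the counts over all genes were 1605 at ZT1, 1 in LPS samples between times, 65 in PBS samples and 12 for the interaction, with 0 members between times in LPS. With a CPM of at least 5 in 3 samples the PBS count between times was 158. With no intensity trend the counts between times were 0 in LPS and 3 in PBS, and 11 for the interaction, with 0 members in LPS. With sample quality weights they were 225 in LPS and 124 for the interaction, with 2 members between times in LPS, 1 member (*Dcn*) called for the interaction and 3 members called at ZT1. *Ogn*, not called at ZT1, there had a log2 difference of 0.0178. With a single fit of all 16 samples the counts between times were 122 in LPS and 43 in PBS, with 3 members at ZT1. With median-of-ratios scaling the log2 difference of *Lum* at ZT13 was −0.0246. The cause of these differences was not tested.

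With replicate numbers as a block (replicate block) the counts over all genes were 2637 at ZT1, 4680 at ZT13, 3 in LPS and 57 in PBS between times and 25 for the interaction, with 2, 5, 1, 0 and 0 members. Residual correlations within a number ran from −0.20 to 0.33, not all over 0.1, and the main fits took the samples as unpaired. These correlations cannot exclude a pairing.

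Leaving out each sample in turn, counts over all genes ran from 1767 to 3758 at ZT1, 0 to 345 in LPS and 12 to 87 in PBS between times, and 7 to 104 for the interaction. Member counts ran from 2 to 3 at ZT1, 3 to 5 at ZT13, 0 to 3 in LPS between times and 0 to 1 for the interaction. Signs of log2 differences changed for *Ogn* at ZT1 (−0.17 to 0.0143), *Prelp* at ZT1 (−0.21 to 0.15), *Lum* at ZT13 (−0.0883 to 0.16) and *Prelp* between times in PBS (−0.16 to 0.20). Fewer samples are compared in these fits. *Aspn* and *Omd* entered a test with no filter, with adjusted p of 0.582 and 0.853 at ZT1 and 0.435 and 0.183 at ZT13.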
